A study of Mus musculus with 9 samples.

Results

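Untreated cultures of mouse hippocampal neurons were described by the miRNAs that their arrays could measure. The cells came from C57BL/6 mice at postnatal day 1, were grown in dishes for 10 days in vitro, and received neither NMDA nor bicuculline. The arrays labelled control were 3 of the 9 in the series, each from an independent cell preparation according to the methods, and the 6 arrays of treated cultures were not used. Of the 650 miRNAs with probes on the array, the 611 named as mouse miRNAs were followed and the 39 viral ones were set aside. Which cells other than neurons these primary cultures held is not given in the sources used here, and in RNA from a whole dish fewer cells of a type cannot be told apart from less RNA per cell.

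A miRNA is cut from a hairpin precursor and loaded into an Argonaute protein, where its seed, bases 2 to 8 from the 5′ end, pairs with target mRNAs and leads to their repression. miRNAs with the same seed form families with overlapping targets, and miRNAs whose hairpins lie close together in the genome are often cut from one transcript. The brain is known for high levels of let-7, miR-9, miR-124, miR-125b and miR-128, which have roles in neuronal differentiation, dendrite growth and synaptic function.

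The mature sequences below, from the RefSeq miRNA table of build GRCm38.p6, belong to the families and strands that held most of the signal. The capitals mark the seed. The array names were matched to the present names of the table, and 407 of the 611 mouse miRNAs had a sequence there. All 9 members of the let-7 family carry the seed GAGGUAG.
let-7c: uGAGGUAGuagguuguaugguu
let-7a: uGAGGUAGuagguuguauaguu
let-7f: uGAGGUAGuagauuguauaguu
let-7b: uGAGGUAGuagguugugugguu
let-7d: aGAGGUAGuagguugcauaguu
let-7g: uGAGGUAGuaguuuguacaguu
let-7e: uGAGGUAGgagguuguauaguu
let-7i: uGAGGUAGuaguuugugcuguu
miR-98: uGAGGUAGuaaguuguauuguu
miR-125b-5p: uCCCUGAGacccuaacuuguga
miR-125a-5p: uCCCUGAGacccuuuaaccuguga
miR-9: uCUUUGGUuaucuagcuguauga
miR-9*: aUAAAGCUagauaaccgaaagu
miR-128: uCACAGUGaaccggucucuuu
miR-107: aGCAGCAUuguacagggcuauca
miR-103: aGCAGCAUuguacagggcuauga
miR-99a: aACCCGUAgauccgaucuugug
miR-100: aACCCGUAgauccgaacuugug

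The let-7 members differ from each other at 1 to 6 positions, and 4 of their 36 pairs differ at 1 position only. let-7c, let-7e and let-7f each differ from let-7a at 1 position. miR-103 and miR-107, and likewise miR-99a and miR-100, also differ at 1 position. How well the probes separate such near-identical miRNAs was not tested, so the values of these single members are uncertain.

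Each array gave a background-subtracted brightness, here called the signal, for every probe. Almost every miRNA had several probes, and each was read from the brightest. Its share is its signal as a percentage of the summed signal of all mouse miRNAs on that array, so that arrays of unequal brightness can be compared. Probes differ in how well they bind, so all ranks and shares below are of signal and not of molecules. Among the 160 miRNAs measured on all arrays, the second-brightest probe gave a median of 43.5% of the brightest, and for 25 of them it gave less than 20%. No spot was saturated. The summed signal lay between 145363 and 177709, and with 3 arrays the errors given are rough.

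A probe was taken as well above background where the scanner software marked at least 50% of its spots so, and a miRNA where any of its probes was. In total 160 of 611 mouse miRNAs, 26.2%, were well above background on all 3 control arrays, and 406 of 611, 66.4%, on none. The other 45 were seen on 1 or 2 arrays. Control replicates 1, 2 and 3 measured 162, 170 and 204 miRNAs. Most of the difference came from replicate 3, on which 33 miRNAs were seen that neither other array showed.

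Replicate 3 lay on another slide and was read with another version of the scanner software. The SD of its unflagged negative control spots was 4.47 signal units, against 9.73 on replicate 1 and 11.95 on replicate 2. Its lowest signal called well above background was 23.8, against 51.1 and 51.4 on replicates 1 and 2. On replicate 3, 25 of those 33 miRNAs had a share under 0.0289%, the lowest share called on the other arrays. A miRNA counted as not well above background therefore has only a rough bound, which was lower on replicate 3. The calls rest on marks of single spots and not on a signal cutoff. let-7d*, called on no array, gave 55.3 on replicate 2, above the lowest signal called there.

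The signal was concentrated in few miRNAs. By mean share the brightest miRNA held 12.4%, the 5 brightest held 36.9%, the 10 brightest 53.7% and the 50 brightest 85.0% of the summed signal. On each array 9 miRNAs were enough for 50% of the signal. Between 69 and 75 were needed for 90%. This concentration depended on how background was treated. With the normexp background correction 46 miRNAs held 50% of the signal, or 17 with flagged spots left out of its fit, and in the authors' table, taken as log2, 65 did. The share of the 10 brightest was then 31.5%, 41.6% and 26.4%. The normexp fit to all spots, which gave the 46 and the 31.5%, left replicate 3 almost flat. The miRNAs called on an array held between 97.7% and 99.1% of its signal.

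**Figure D1:**
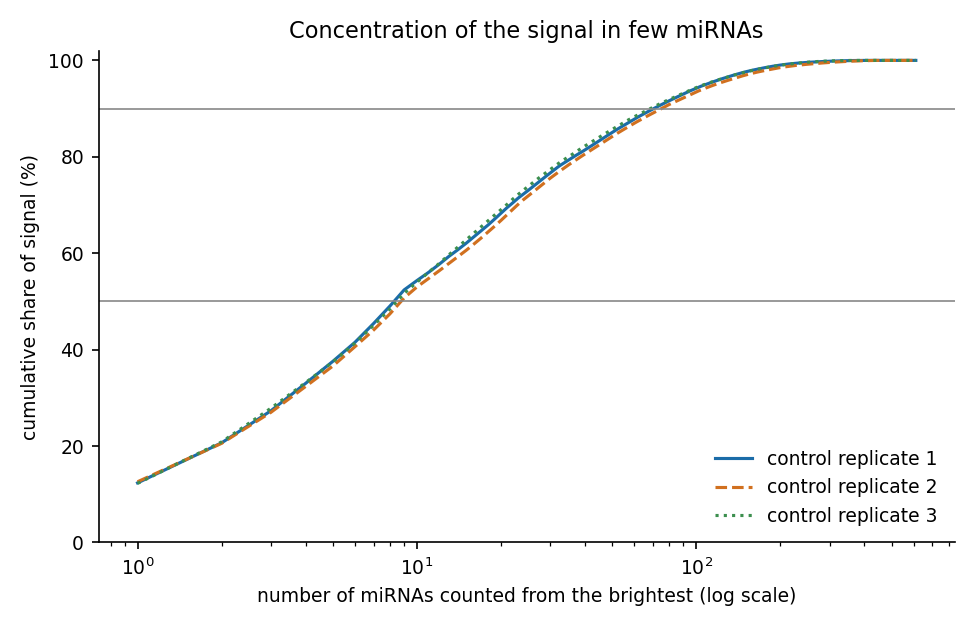
Cumulative share of the summed mouse miRNA signal, in percent, against the number of miRNAs counted from the brightest on a log scale, with a line for each control replicate and grey lines at 50% and 90%. The 3 curves nearly coincide and cross 50% at 9 miRNAs.

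miR-125b-5p, a brain-rich miRNA with known roles in neuronal differentiation and dendritic spines, was the brightest on every array. Its signal was 20454, 22371 and 17803 on replicates 1, 2 and 3, which is 12.3%, 12.6% and 12.2% of the summed signal. It lay above let-7c on all 3 arrays. Its other probe gave 12.3% of the brightness of the probe used. In the authors' own table, taken as log2 values, let-7c was the brightest and miR-125b-5p came after it.

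The next 4 miRNAs were members of the let-7 family, known for promoting differentiation and for repressing growth genes such as Lin28. let-7c had shares of 8.32%, 7.98% and 8.61%. let-7a had 6.63%, 6.42% and 6.97%. The 3 arrays gave the same order of miR-125b-5p, let-7c, let-7a, let-7f and let-7b. let-7f had shares of 5.72%, 5.39% and 5.34%, and let-7b had 3.95%, 4.02% and 4.25%.

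let-7b, miR-9, miR-128, miR-9* and miR-124 followed, and no neighbours in this stretch kept their order on all 3 arrays. miR-9 and miR-9* are the strands of one hairpin that is expressed in neural progenitors and neurons. miR-9 gave signals of 7520, 7487 and 4904 and shares of 4.54%, 4.21% and 3.37%, and it was lower on replicate 3 than on the other arrays. miR-9* gave signals of 6485, 5890 and 5341. miR-128, known for restraining neuronal excitability, gave 5938, 6156 and 5719. miR-124, the most widely used marker of neurons among miRNAs, gave 5584, 5918 and 4716.

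miR-124 had a share of 3.32% ± 0.0650 (SD, n = 3), below let-7b and miR-9 on average and above miR-129-3p on every array. The miRNAs listed here for neurons, let-7b, miR-9 and miR-124, ranked 5, 6 and 9 by mean share, and together held 11.4% ± 0.514 (SD, n = 3). let-7b gave 35.6% of this sum, and how well its probes separate it from let-7c was not tested. The sum is therefore not a measure of the neuronal part of the signal. All 3 listed miRNAs were well above background on all 3 arrays, beside 26.2% of all mouse miRNAs. The brighter probe of miR-124 was much brighter than the other, which gave 13.9% of it.

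**Figure D2:**
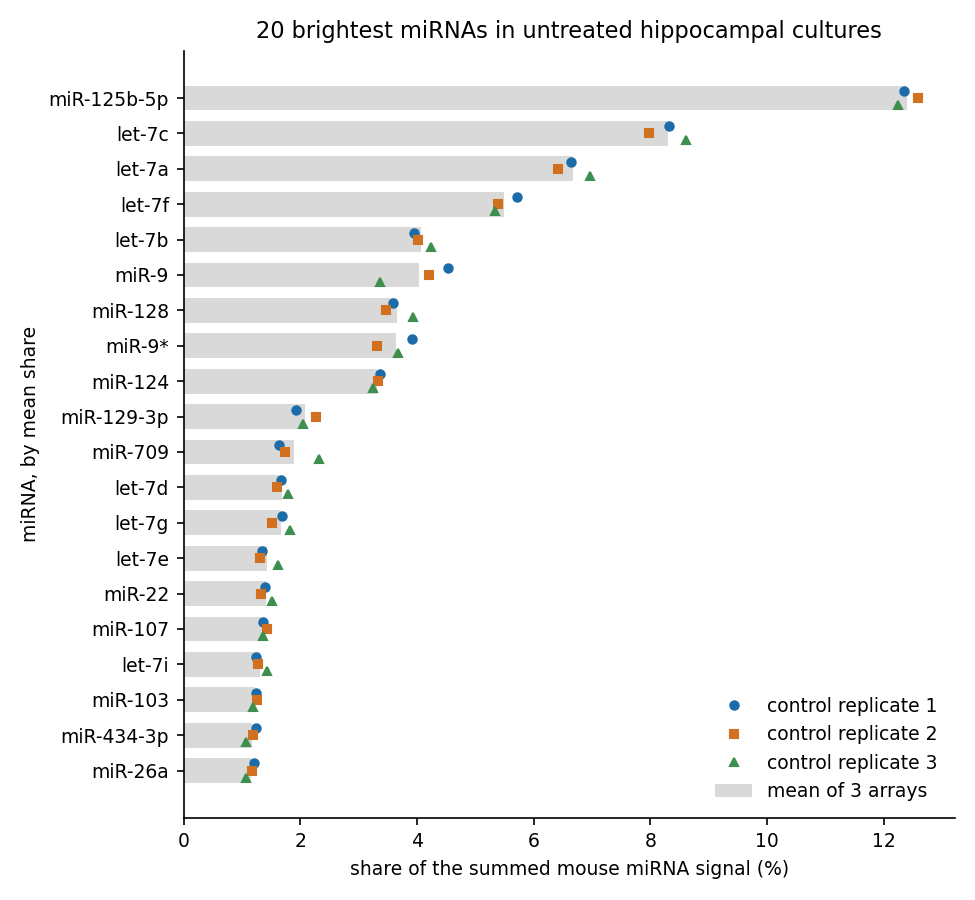
Share of the summed mouse miRNA signal, in percent, of the 20 miRNAs with the highest mean share, with a bar for the mean of the 3 control arrays and a symbol for each replicate. miR-125b-5p stands at 12.4%, 8 members of the let-7 family are among the 20, and miR-9 and miR-709 show the widest scatter between replicates.

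Below miR-124 the shares fell off gradually. miR-129-3p, from a brain-rich hairpin, had 1.93%, 2.28% and 2.05%. miR-709 had 1.64%, 1.74% and 2.32% and was highest on replicate 3. The rest of the 20 brightest were let-7d, let-7g, let-7e, miR-22, miR-107, let-7i, miR-103, miR-434-3p and miR-26a, with mean shares from 1.69% down to 1.15%. Of the 20 neighbouring pairs from the brightest miRNA to miR-99a, at place 21, 8 kept their order on all 3 arrays, so the order within this stretch is mostly not separated from the spread between arrays. The membership was firmer, since 18 miRNAs were among the 20 brightest on every array and 22 on any. The ones that moved in or out were miR-26a, miR-434-3p, miR-99a and miR-1224, the last of which was named after its values were seen.

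Shares were summed over 45 listed families, a list that holds no star strand and does not hold miR-129-3p, miR-22 or miR-709. Among these families let-7 held the highest share. Its 9 members summed to 30.8%, 29.7% and 32.0% of the signal, a mean of 30.9% ± 1.16 (SD, n = 3). All 9 were well above background on all 3 arrays, beside 26.2% of all mouse miRNAs. let-7c, the brightest member, gave 26.9% of the family's signal. miR-98, which shares the seed, was the dimmest with shares of 0.237%, 0.212% and 0.213%. The miR-125 family followed with 13.1% ± 0.251 (SD, n = 3), of which miR-125b-5p gave 94.5%. The miR-125 share was 10.2% with normexp, another background correction, fitted without flagged spots. It was 7.94% with normexp fitted to all spots, a fit that left replicate 3 almost flat. Other summaries of probes gave 9.24% and 10.8%, and the authors' table gave 4.33%. In that family miR-125a-5p had a mean share of 0.721%, and miR-351, encoded in an X-linked cluster, was well above background on no array.

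Of the listed families those of miR-9, miR-128, miR-154 and miR-124 came next, with mean shares of 4.04%, 3.66%, 3.62% and 3.32%. miR-9*, which is not on the list, held 3.63%. The order of miR-9, miR-128 and miR-154 was not separated from the spread between arrays, since miR-154 lay above miR-128 on replicates 1 and 2 and above miR-9 on replicate 3. The miR-154 family differed in kind from the others, since its share was spread over 15 members. Of these, 13 were well above background on all 3 arrays, which is 86.7% beside 26.2% of all mouse miRNAs. Its brightest, miR-487b, gave 20.1% of the family's signal, and miR-539 and miR-369-3p were the members seen on no array. Its members are grouped by the likeness of their hairpins, and no seed was shared between those with a sequence in the table.

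miR-103 and miR-107, which lie in introns of the pantothenate kinase genes and are found in many tissues, summed to 2.60% ± 0.0706 (SD, n = 3). The miR-99/100 family held 1.60%, with miR-99a giving 70.3% of it. All 6 members of the miR-30 family were seen on all 3 arrays, beside 26.2% of all mouse miRNAs. They held 1.47%, with miR-30c the brightest. miR-26a and miR-26b held 1.32%. The 10 listed families with the highest shares have 43 members on the array and held 65.6% ± 0.5004 (SD, n = 3) of the signal.

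**Figure D3:**
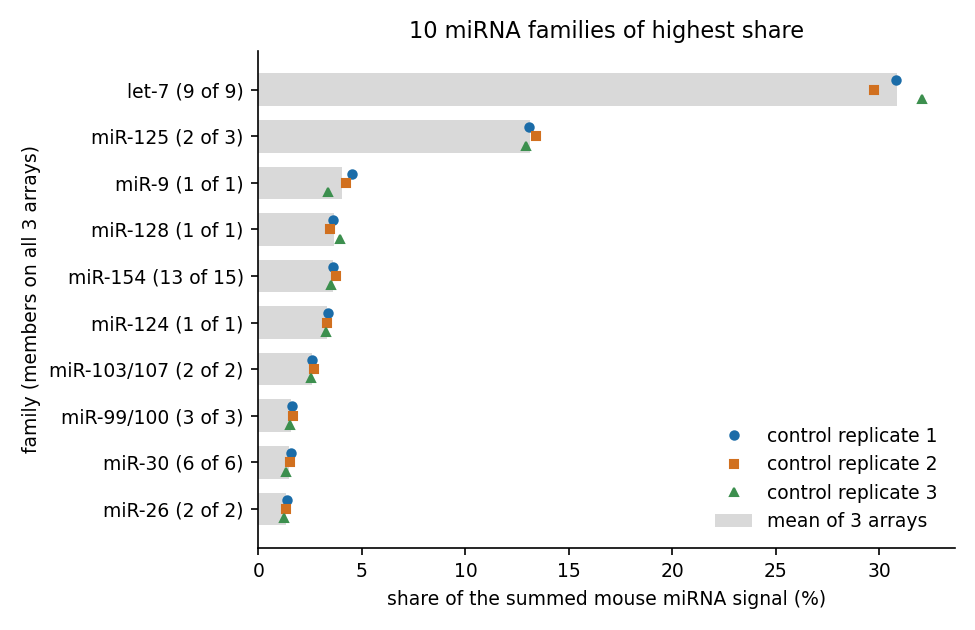
Share of the summed mouse miRNA signal, in percent, of the 10 listed miRNA families with the highest mean share, with a bar for the mean of the 3 control arrays, a symbol for each replicate, and the number of members well above background on all 3 arrays of those measured. let-7 at 30.9% and miR-125 at 13.1% lie apart from the other families, which hold between 1.32% and 4.04%.

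Many of these bright miRNAs are neighbours in the genome. In GRCm38.p6 the hairpin of miR-99a lies at chr16:77598936-77599000 and that of let-7c-1 at chr16:77599657-77599750, and the mature miR-125b of the Mir125b-2 gene follows on the same strand at chr16:77646279-77646300. A like trio on chromosome 9 holds miR-100 at chr9:41531425-41531504, let-7a-2 at chr9:41536716-41536811 and miR-125b-1 at chr9:41581926-41582002, within the span of Mir100hg, a non-coding host gene. A further trio on chromosome 17 holds miR-99b, let-7e at chr17:17830352-17830444 and miR-125a at chr17:17830812-17830879, within the span of Spaca6. The 8 distinct mature miRNAs of these clusters held 31.0%, 30.8% and 31.6% of the signal.

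The sums for these clusters differed, but they do not give the output of each locus. The miRNAs of the chromosome 17 cluster held 2.28% ± 0.0999 (SD, n = 3), with let-7e at 1.43%, miR-125a-5p at 0.721% and miR-99b at 0.129%. Those of the chromosome 16 cluster held 21.8% and those of the chromosome 9 cluster 19.4%, but these sums share miR-125b-5p, which both loci encode, and let-7a and let-7c have a further locus each. An array of mature miRNAs cannot tell which locus a molecule came from. let-7a-1, let-7f-1 and let-7d lie together on chromosome 13, with let-7a-1 at chr13:48538179-48538272, and their mature miRNAs held 13.8% ± 0.382 (SD, n = 3). Like let-7a, let-7f has a further locus, let-7f-2 on chromosome X, so this sum cannot be given to chromosome 13 alone.

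The imprinted Dlk1-Dio3 region on chromosome 12, expressed from the maternal chromosome in brain and embryo, is the largest of the clusters followed here. Of its 74 miRNAs 44 were well above background on all 3 arrays and 30 on none, so that none was seen on only some arrays. This is 59.5%, beside 26.2% of all mouse miRNAs. The cluster held 10.2%, 10.4% and 9.63% of the signal, and its brightest member, miR-434-3p, gave 11.5% of it. Its median member had a share of 0.0523%.

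miR-434-3p had signals of 2047, 2109 and 1562. miR-127, named after its values were seen, opposes the imprinted gene Rtl1 from the other strand and gave 1630, 1949 and 1275. miR-539 gave 43.9, 42.5 and 24.4, and miR-134, which is known for its action on dendritic spines, gave 27.8, 26.4 and 20.9. Neither miR-539 nor miR-134 was well above background on any array.

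Other clusters had no member well above background on any array. All 39 listed members of the miR-297, miR-466, miR-467 and miR-669 families were well above background on no array. Most of their hairpins, 31 of the 37 with a gene in the table, lie on chromosome 2, where an intron of Sfmbt2 holds a large repeat-like cluster. Their brightest member, miR-467f, gave signals of 18.1, 38.8 and 19.7. The 25 members of an X-linked cluster known from testis, the 14 of the miR-290 to miR-295 cluster and the 8 of the cluster that starts with miR-302, both known from pluripotent cells, and the 11 of the X-linked cluster from miR-322 to miR-450 were likewise seen on no array. All members of each of these clusters were thus unseen, beside 66.4% of all mouse miRNAs.

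Some clusters that are cut from one transcript were split. In the miR-17-92 cluster, which promotes cell proliferation, miR-19b, miR-20a and miR-92a were seen on all 3 arrays. Its members miR-18a, miR-19a and miR-17 were seen on none. miR-19b and miR-92a are also listed for the miR-106a-363 cluster on chromosome X, so their signal cannot be given to miR-17-92 alone. miR-20a gave signals of 128, 148 and 101, and miR-17 gave -7.05, -0.519 and 0.737. miR-425 gave 38.7, 51.4 and 35.1 and was seen on 2 arrays, whereas its cluster mate miR-191 gave -3.73, -9.59 and -4.22. Signals this close to zero show only that these probes gave no light above their surroundings. Whether the probes of miR-17 and miR-191 respond to their targets was not tested.

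Lists of miRNAs known from brain and from other tissues were set beside the labelled cell type. They were chosen with earlier results of these data known, so they are no independent check of it. Of 22 miRNAs known from brain and neurons, 17 were well above background on all 3 arrays, 3 on some and 2 on none. That is 77.3% beside 26.2% of all mouse miRNAs, and the list held 13.8%, 13.8% and 13.9% of the signal. miR-128 was its brightest member. miR-383 and miR-219 were the members seen on no array.

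miR-219 and miR-338 are known from oligodendrocytes, the myelin-forming cells. miR-219 gave signals of -0.224, 6.05 and 5.52, and miR-338-5p was not well above background either. miR-338-3p was seen on all 3 arrays with signals of 197, 195 and 204. The defining miRNAs of this cell type therefore disagreed, with miR-219 well above background on no array and miR-338-3p at a share of 0.123%.

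Of 6 miRNAs listed here for astrocytes and reactive glia, miR-21 and miR-146a were seen on all 3 arrays and miR-449a on 2. miR-31, miR-155 and miR-143 were seen on none. The list is not specific, since miR-146a and miR-155 are also listed for leukocytes, miR-449a for testis and miR-143 for smooth muscle. The 33.3% seen on all arrays is near the 26.2% of all mouse miRNAs. miR-21 was bright, with signals of 1311, 1176 and 1151 and a share of 0.748% ± 0.0748 (SD, n = 3). The list held 0.874%, 0.765% and 0.856% of the signal, nearly all of it miR-21, which is also expressed in many other cell types. miR-146a, at 66.6, 62.6 and 37.1, was among the dimmest miRNAs seen on all arrays.

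Of 7 miRNAs of microglia and other leukocytes, miR-146a was seen on all 3 arrays and the other 6 on none, which is 14.3% seen beside 26.2% of all mouse miRNAs. The defining miR-223, miR-142-3p and miR-142-5p were well above background on no array. miR-223 gave 10.9, 12.2 and 17.2, and miR-142-3p gave 3.13, 14.8 and 3.43. miR-126-3p, the endothelial miRNA, was well above background on 1 array with signals of 46.9, 47.5 and 36.6, and miR-126-5p on none. The summed share ranged from 0.0428% to 0.0647% for the leukocyte list and from 0.0252% to 0.0326% for the endothelial one. The part of these cell types in the profile was not tested.

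None of the 8 miRNAs of smooth muscle and fibroblasts was well above background on any array. miR-143 and miR-145 had negative signals on every array. The brightest of the 8, miR-199a-3p, gave 33.0, 48.4 and 18.4, above the negative control means of -0.571, 6.07 and 3.86. None of the miRNAs of erythroid cells, of epithelium and endocrine tissue, of pluripotent stem cells or of the Hox clusters was seen on any array, and these lists have 3, 11, 14 and 6 members. Beside them, 66.4% of all mouse miRNAs were seen on no array, so that the shorter of these lists say little. miR-122, which is nearly specific to liver, gave 2.79, 8.53 and 2.31. In the list of liver and gut, miR-192 was seen on 1 array.

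A few miRNAs of other tissues did stand above background. miR-1, known from heart and skeletal muscle, was seen on all 3 arrays with signals of 84.4, 91.8 and 76.2. The other 7 of the 8 listed muscle miRNAs, among them miR-133b, miR-133a and miR-499, were seen on none. That is 12.5% of the list seen on all arrays, beside 26.2% of all mouse miRNAs, and 66.4% of all mouse miRNAs were seen on none. miR-204, abundant in choroid plexus and retina, gave 180, 205 and 157. miR-211, miR-96 and miR-183 of the same list were well above background on no array. miR-449a, known from multiciliated cells and testis and also on the list of astrocytes and reactive glia, gave 42.6, 95.1 and 40.3 and was well above background on 2 arrays.

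**Figure D4:**
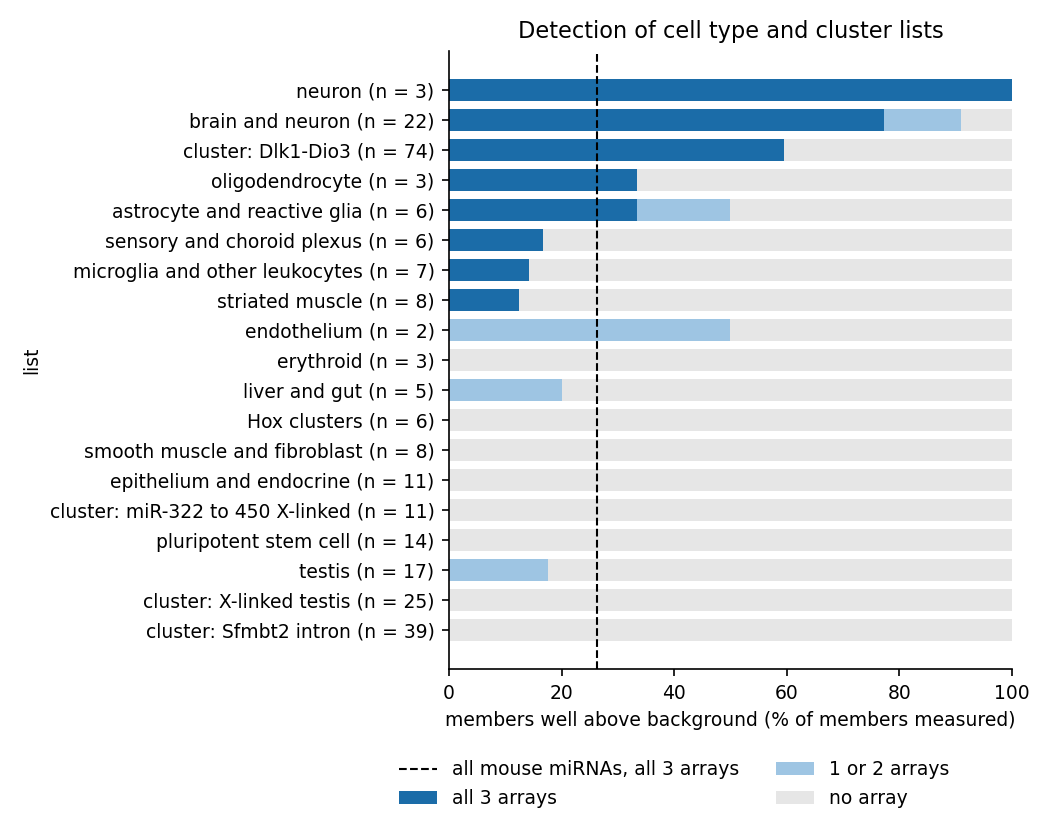
Percentage of the members of each list of cell type miRNAs, and of 4 genomic clusters, that were well above background on all 3 control arrays, on 1 or 2 of them, or on none, with the number of members measured; the dashed line marks the 26.2% of all mouse miRNAs seen on all 3 arrays. The neuron list at 100%, the brain list at 77.3% and the Dlk1-Dio3 cluster at 59.5% lie above the line. The lists of oligodendrocytes, with 1 of 3 members, and of astrocytes and reactive glia, with 2 of 6, are both at 33.3% and near it. The lists of pluripotent stem cells, epithelium and smooth muscle have no member on any array.

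Which strand of a hairpin was seen could be followed for 167 hairpins with both strands on the array. Both strands were well above background on all 3 arrays for 19 hairpins, one of the strands for 56, and neither for 92. For 18 of the 19 the same strand was brighter on every array, and the exception was miR-9, which was brighter than miR-9* on replicates 1 and 2 and dimmer on replicate 3. Of the 115 strands with a star name, given to the strand taken to be rarer when it was named, 13 were well above background on all 3 arrays, which is 11.3% beside 26.2% of all mouse miRNAs.

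let-7 hairpins were seen on the named strand only. For 6 let-7 hairpins both strands had probes, and the star strand was well above background on no array for any of them. let-7d* was the brightest of these, with signals of 24.9, 55.3 and 21.4. The Dlk1-Dio3 region was different, with both strands on all 3 arrays for 11 of its 23 hairpins of this kind, beside 8 of the 144 others. The others included miR-9, miR-129 and miR-139. miR-411*, named after its values were seen, was brighter than miR-411 on all 3 arrays, with signals of 232, 211.2 and 173 against 148, 164 and 105.

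The sequences of the measured miRNAs were compared with their levels. Among the 160 miRNAs seen on all 3 arrays, 88.1% had a sequence in the table, with a median GC content of 45.5% and a range from 27.3% to 72.7%. Of those with a sequence, 56.0% began with U. Across the same miRNAs, GC content and mean log2 level had a Pearson correlation of -0.07 and a Spearman correlation of 0.01, across miRNAs that are not independent and were read with probes of unequal affinity. Only 57.1% of the miRNAs seen on no array had a sequence in the table, so no comparison of sequence between seen and unseen miRNAs is given.

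The 3 control arrays gave nearly the same profile. Across the 160 miRNAs seen on all arrays, which do not vary independently, the Pearson correlation of log2 signals was 0.99 for each pair of arrays. For the spread, each array was scaled to its own 75th percentile, taken over the 281 probes that all control arrays showed above background, and log2 was taken of the result, here called the level. The median SD of the level over the 3 arrays was 0.12, and 132 of 160 miRNAs had an SD under 0.20.

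On this scale the steadiest miRNAs were miR-26a, miR-181b and miR-434-3p. The choice of scale matters here, since the shares of miR-434-3p were 1.24%, 1.19% and 1.07% on replicates 1, 2 and 3. miR-26a, found in many tissues, had levels of 1.74, 1.74 and 1.73. The most variable were miR-139-3p, miR-188-5p and miR-689, which were also the miRNAs with an SD over 0.50. miR-139-3p had levels of -1.07, -1.39 and -2.41 and was lowest on replicate 3. miR-188-5p had -3.33, -3.19 and -2.14 and was highest on replicate 3. miR-689 had -2.09, -0.83 and -1.23 and was lowest on replicate 1. According to the authors it is disputed that miR-689 is a true miRNA.

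In level, replicate 3 lay above both other arrays for 80 of the 160 miRNAs and below both for 47. The median difference from the mean of replicates 1 and 2 was 0.07. These counts and this difference depend on the scaling. The 75th percentile was 596, 628 and 472 on replicates 1, 2 and 3, and the summed signal used for shares was 165632, 177709 and 145363. The same counts were not made on shares. Since replicate 3 was the lone control array on its slide, the slide, the version of the scanner software and the cell preparation cannot be told apart. miR-709, miR-1224 and miR-720, the last named after its values were seen, were all highest on replicate 3. miR-720 had levels of 0.12, -0.02 and 0.88.

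**Figure D5:**
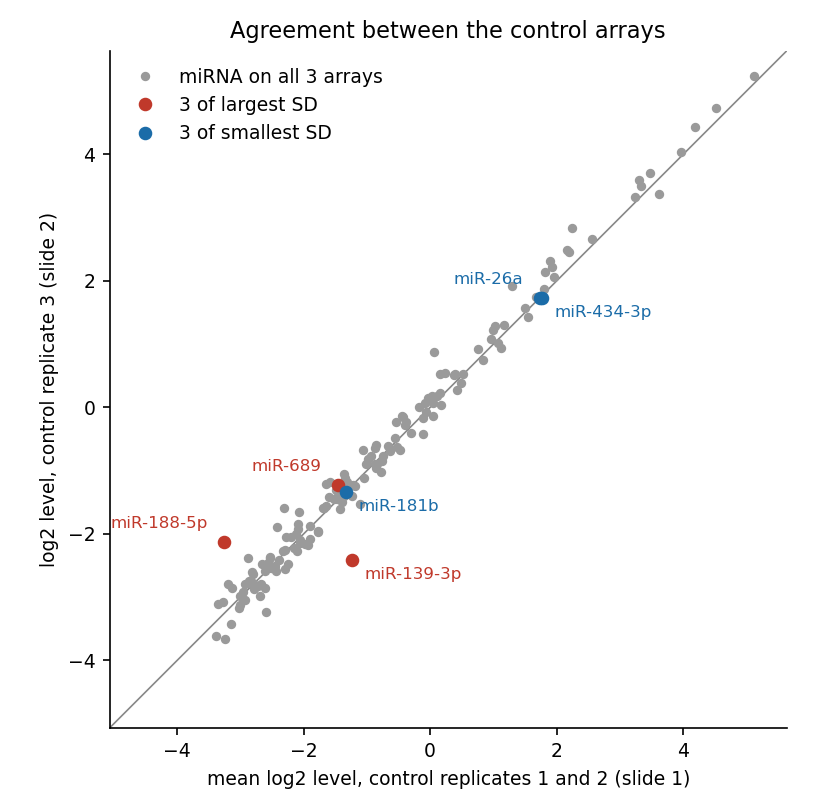
Level (log2 of signal scaled to the 75th percentile) on control replicate 3 against the mean of replicates 1 and 2 for the 160 miRNAs seen on each of the 3 arrays, with the line of equality and with the 3 miRNAs of largest and of smallest SD coloured. Most miRNAs lie near the line, and miR-139-3p and miR-188-5p lie farthest from it.

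Just inside the limit of detection on all 3 arrays were miR-340-5p, miR-146a and miR-485, with mean shares of 0.0318%, 0.0337% and 0.0358%. Just outside it, seen on no array, were miR-539, let-7d* and miR-199a-3p, with 0.0224%, 0.0203% and 0.0199%. The brightest miRNA thus had a signal of 17803 or more on every array, and the dimmest of those measured on all arrays, miR-340-5p, had 62.0, 55.9 and 38.4.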

How the data were processed

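Total RNA from 3 untreated cultures was labelled with Cy3 and hybridized to one-colour Agilent mouse miRNA arrays (Release 12.0). The authors deposited the scanner output of Agilent Feature Extraction (10.7.1.1 for replicates 1 and 2, 10.7.3.1 for replicate 3), in which each spot intensity was already background-subtracted but arrays were not normalized to each other. They also deposited a table of log2 values, whose normalization is not given in the sources used here and whose medians were 7.07, 7.08 and 7.06. On the 20 brightest miRNAs its values rose by 0.79 to 0.88 per log2 unit of scanner signal.

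Outlier spots by the software's flags for signal and background (276, 379 and 351 of 13000) were left out, and the remaining spots were averaged by probe. For each of the 1857 probes the share of spots well above background was found. Negative signals were set to 0 before shares were taken. The steps ran in pandas 2.3.3, and the code was run on simulated data with known shares and detection. There spots were marked by a signal cutoff, unlike on the real arrays, and present miRNAs lay well above the noise. The run therefore checks the code and not the calls of dim miRNAs. limma 3.58.1 in R 4.3.3 was used for one background correction alone. No statistical test was run, since there is 1 group.

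The miRNAs named are the 20 brightest, the 3 listed for neurons, the brightest and up to 3 unseen members of each list, and those with the widest and narrowest spread or nearest the limit of detection. The text says where a further name was picked with its values in view. The members and lists were chosen with earlier results of these data known. Alternatives were other summaries of probes, background corrections, normalization and detection rules, the authors' table and leaving out each array. Cluster membership was checked against the genes of GRCm38.p6, whereas the array headers name another build, mm9.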

Additional observations from a re-analysis of the deposited data

Results flagged for a closer look

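Outside the mouse miRNAs, the array holds probes for 39 viral miRNAs. 1 of them, mghv-miR-M1-2, was well above background on control replicate 3 with a signal of 31.3, and gave 10.9 and 29.2 on replicates 1 and 2, where no viral miRNA was called. The lowest signal called well above background was 23.8 on replicate 3 and over 51.0 on the other arrays.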

How the results depend on the processing

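No paired analysis was possible because the arrays form 1 group and no comparison between groups was made. The count of miRNAs well above background on all arrays lay between 151 and 192 under the other detection rules, and that on no array between 375 and 427. The share of the 10 brightest was 46.1% with the total gene signal, 52.5% with the mean of all probes, 51.3% with flagged spots kept, 54.9% over the miRNAs seen on all arrays, 31.5% with normexp fitted to all spots, 41.6% with normexp fitted without flagged spots and 26.4% in the authors' table. In that order without the fourth, the let-7 share was 27.7%, 32.1%, 29.6%, 17.8%, 23.8% and 17.5%. The number of miRNAs holding 50% of the signal was 46 and 17 under the normexp settings and 65 in the authors' table. By construction normexp adds an offset of 50 to every spot, and the authors' table has no value below 6.81, so both give dim miRNAs more weight. The normexp fit to all spots left replicate 3 almost flat, with an interquartile range of 0.01 on the log2 scale, and the fit without flagged spots was added after seeing the data. miR-124 ranked 11 with the total gene signal, miR-9 ranked 8 with that signal, in the authors' table and with the mean of all probes, and let-7b ranked 6 under both normexp settings. Leaving out each array in turn gave a share of the 10 brightest from 53.3% to 54.0%, a let-7 share from 30.3% to 31.4%, a rank of let-7b from 5 to 6, and a count on no array from 406 to 439, the last without replicate 3. let-7 and miR-125 were the families of highest share, in this order, under every setting run, and between 17 and 20 of the 20 brightest were shared with each setting. Among 220 further values of single families and lists, 51 moved by more than the spread between arrays or by more than 1.5 times. Grouping by shared seed could not be applied to the miR-154 family, whose members share none, or to miR-124, which had no sequence in the table. The values that moved include 1 testis miRNA seen on all arrays without replicate 1, and 0 leukocyte miRNAs where every spot of a probe had to be above background.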
